A study of Arabidopsis thaliana with 24 samples.

Results

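The comparison described here set Arabidopsis thaliana seedlings of the double mutant atx4/5 directly against seedlings of the double mutant atx1/2, so that 2 classes of histone methyltransferase gene were compared without the wild type in between. Its members were the genes whose value reached 1 in 2 or more of the 14 columns of the deposited table that holds both mutants, which gave 24843 of the 32548 genes listed. The 7705 genes left out were at or near 0. At the edge of this rule, 609 genes reached 1 in exactly 2 columns, with a median highest value of 2.03, and 1149 genes reached it in exactly 1 column, with a median highest value of 1.14. The comparison used 4 of the 24 RNA sequencing libraries of the series, 2 of atx4/5 and 2 of atx1/2.

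Per the labels, atx4/5 lacks function of ATX4 and ATX5, and atx1/2 lacks function of ATX1 and ATX2, each as a homozygous line. Of the other groups in the same table, the text uses the quadruple mutants atx2/3/4/5 and atx1/2/4/5 and the wild-type accession Col-0, and from a second table it uses atx4/5;jmj24 and jmj24, where JMJ24 is a gene for a JmjC-domain protein. Each of these groups had 2 libraries here. All plants were whole seedlings 11 days old on plates under 16 h of light per day, so a difference in a gene can reflect the level per cell or the number of cells that express it, and these cannot be told apart. The labels name neither the alleles nor whether the 2 libraries of a group stem from separately grown plants, and the spread that the p-values rest on may be a technical one. Estimated depth was 25.7 and 23.9 M reads in atx4/5, against 27.8 and 25.6 M reads in atx1/2. They also do not say which libraries were read as single and which as paired reads, so that difference cannot be told apart from the groups.

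The ATX proteins are the Trithorax-type enzymes of plants. Within COMPASS complexes they place methyl groups on lysine 4 of histone H3, a mark found at the starts of genes that are being transcribed. ATX1 and ATX2 form one branch of the family, related to Trithorax of Drosophila, and ATX3, ATX4 and ATX5 form another. ATX1 is best known in Arabidopsis for the expression of FLC, the MADS-box repressor of flowering, and of floral identity genes.

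The targeted genes were examined first. Values look like read counts that the authors brought to a common library size, and are called normalised read counts below, and 1 read was worth about 0.834 to 1.21 in the libraries of this table. ATX4 had 50.7 and 35.2 normalised read counts in atx4/5, against 478 and 507 in atx1/2, a log2 fold change of -3.51 ± 0.21 (SE, n = 2 libraries each, adjusted p = 4.82e-07). ATX5 had 237 and 224 normalised read counts in atx4/5, against 481 and 528 in atx1/2, a log2 fold change of -1.13 ± 0.14 (adjusted p = 0.000148). ATX5 stood at 472 and 547 in Col-0.

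ATX1 and ATX2 showed smaller differences in the other direction. ATX1 had 266 and 296 normalised read counts in atx4/5, against 181 and 181 in atx1/2 and 258 and 257 in Col-0, and the difference between the double mutants did not pass the test (log2 fold change 0.63 ± 0.40, adjusted p = 0.471). The libraries of atx1/2/4/5, which enter the shared estimate of the spread, stood far apart for ATX1, at 568 and 191, and ATX1 passed in the fit without the quadruple mutants. ATX2 had 1492 and 1595 normalised read counts in atx4/5, against 1313 and 1318 in atx1/2 and 1273 and 1393 in Col-0, a log2 fold change of 0.23 ± 0.06 (adjusted p = 0.0421) that did not pass when any 1 of the 4 libraries was left out. ATX3 had 552 and 487 in atx4/5 against 444 and 437 in atx1/2, which did not pass the test (adjusted p = 0.217), and stood at 740.5 and 639.9 in atx2/3/4/5. The deposited values cover each gene as a whole and the site of each lesion is not given, so transcript of ATX1, ATX2 or ATX3 in lines labelled as their mutants neither checks nor contradicts the labels, and genotype names below are those of the labels.

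**Figure D1:**
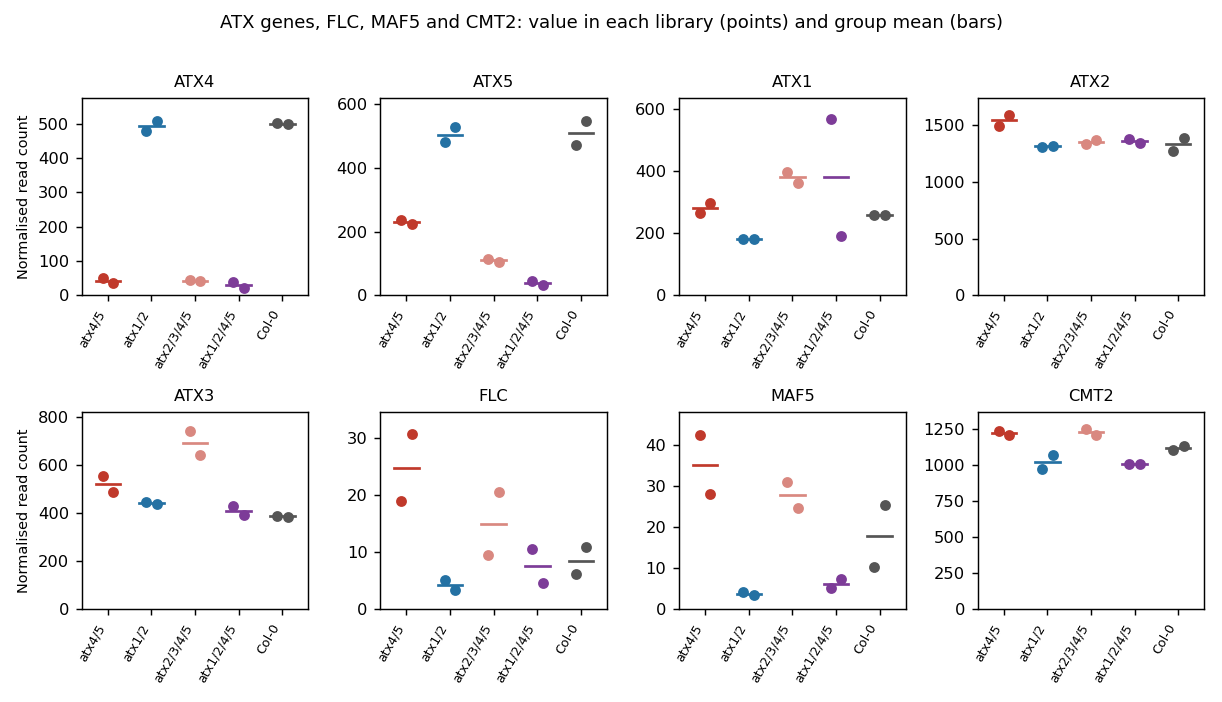
Normalised read counts (y axis, linear from 0) of the 5 ATX genes, FLC, MAF5 and CMT2 in 5 genotypes (x axis), with 1 point per library and a bar at the mean of the 2 libraries. ATX4 stands between 35.2 and 50.7 in atx4/5 against 478 and 507 in atx1/2, while ATX2 lies between 1273 and 1595 in all 10 libraries shown.

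Expression differed between the mutants mostly toward lower levels in atx4/5. Of 24843 genes tested, 1224 passed at an adjusted p under 0.05 (4.93%), of which 428 rose in atx4/5 (1.72%) and 796 fell (3.2%). Lower genes made up 65.0% of those called, and 60.5% to 75.3% under the alternatives tried. Among changes of at least 2-fold the lean was greater, with 98 genes higher (0.394%) and 410 lower (1.65%), and at 4-fold or more there were 43 higher and 181 lower. The median log2 fold change over all genes tested was 0.004. In every called gene both atx4/5 libraries lay on the same side of both atx1/2 libraries, a separation that 25.6% of all genes tested showed upward and 24.5% showed downward. The counts moved with single libraries: 818 genes were called without atx4/5 replicate 1, 553 without atx4/5 replicate 2, 540 without atx1/2 replicate 1 and 537 without atx1/2 replicate 2, where the lone library of a genotype is assumed to vary like the other groups. They also moved with the fit, to 365 (90 higher and 275 lower) with only the double mutants fitted, 598 with all genes with a value above 0 and 765 without a mean-variance trend.

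The genes that fell were expressed at lower levels than those that rose. The median of the mean over the 14 columns was 148 normalised read counts for genes lower in atx4/5 and 515 for genes higher in atx4/5, against 283 for all genes tested. By the same mean, the share of genes called was 2.5% below 10, 7.31% between 10 and 100, 5.64% between 100 and 1000 and 3.68% above 1000. Above 1000 the direction was the other way, with 138 genes higher and 72 lower. The median gene length was 2944 bases for higher and 2168 for lower genes, against 2182 bases for all genes tested.

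**Figure D2:**
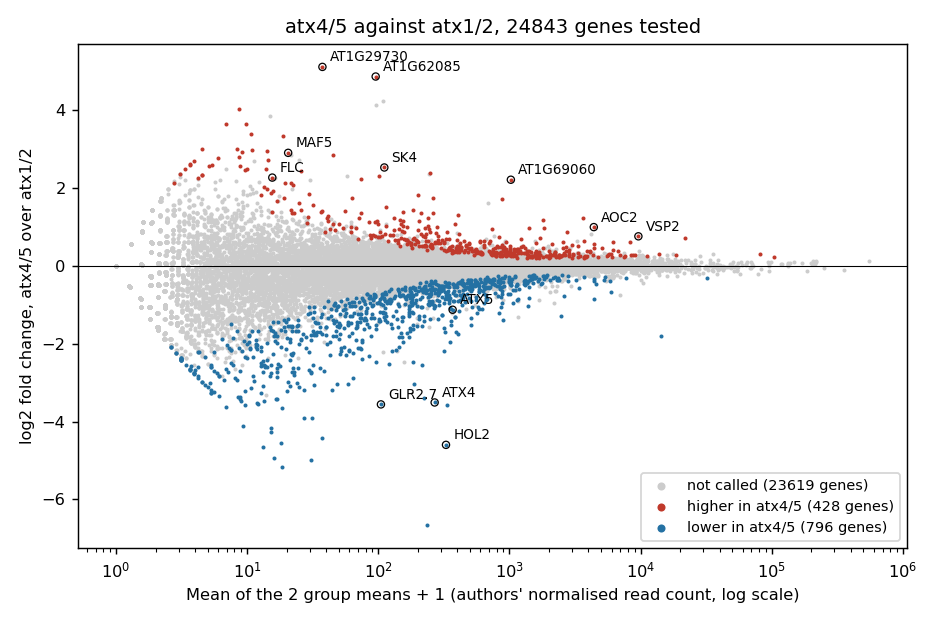
The log2 fold change of atx4/5 over atx1/2 (y axis) against the mean normalised read count of the 4 libraries plus 1 (x axis, log scale) for each gene tested, with genes called higher in red, genes called lower in blue and the rest in grey. The 181 genes lower by at least 4-fold lie mainly at low and middle levels, while AOC2 and VSP2 are among the abundant genes that rose.

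Some of the strong rises were in genes that were low in atx1/2 and at Col-0 levels in atx4/5. AT1G62085, annotated as a member of the mitochondrial transcription termination factor family, had 174 and 193 normalised read counts in atx4/5, against 6.23 and 4.48 in atx1/2 and 154 and 176 in Col-0. Its log2 fold change was 4.87 ± 0.25 (adjusted p = 1.72e-08). SK4, one of the SKP1-like subunits of SCF ubiquitin ligases, had 172 and 205 in atx4/5, against 33.3 and 30.0 in atx1/2 and 188 and 182 in Col-0 (log2 fold change 2.53 ± 0.17, adjusted p = 4.93e-07). In both genes the atx4/5 and Col-0 libraries overlapped, and the atx1/2 libraries stood far below.

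The quadruple mutants divided these genes in the same way, although they share no library with the comparison. AT1G62085 stood at 102 and 154 in atx2/3/4/5, against 10.5 and 7.97 in atx1/2/4/5, a log2 fold change of 3.64 ± 0.25 (adjusted p = 2.62e-07). SK4 stood at 249.9 and 229 in atx2/3/4/5, against 47.0 and 43.6 in atx1/2/4/5 (log2 fold change 2.38 ± 0.17, adjusted p = 4.68e-07). Both quadruple mutants carry the atx2, atx4 and atx5 labels, and only atx1/2/4/5 carries atx1. The same layout, high in atx4/5, Col-0 and atx2/3/4/5 and low in atx1/2 and atx1/2/4/5, was seen in AT1G01670 (RING/U-box), AT3G62500 (an F-box gene) and AT3G20200 (a kinase with an adenine nucleotide alpha hydrolase domain). Their log2 fold changes of atx4/5 over atx1/2 were 3.35, 2.31 and 2.24, with adjusted p of 0.000369, 4.28e-06 and 0.00015, and these 3 genes and AT1G62085 were chosen after their values were seen.

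One stretch of chromosome 1 held 4 neighbouring genes that all rose in atx4/5. It runs from AT1G29710 to AT1G29740 (chr1:10387514-10413119, TAIR10.1, which keeps the nuclear sequence of TAIR10), and 3 of the 4 are annotated as leucine-rich repeat transmembrane protein kinases, a class of receptor-like kinase. AT1G29730 had 76.5 and 66.1 normalised read counts in atx4/5, against 0.0156 and 3.24 in atx1/2 and 73.5 and 57.5 in Col-0, where values under 1 stand for no read. Set against the few reads in atx1/2, its read ratio was 44.4 (95% interval 14.8 to 218, counting error only). AT1G29740 had 15.2 and 15.5 in atx4/5 against 0 and 0 in atx1/2, which is at least 4.76-fold higher against a floor of 3 reads per library. AT1G29720 was less distinct, at 120.2 and 89.3 in atx4/5 against 33.4 and 47.3 in atx1/2, and AT1G29710 had 153 and 135 in atx4/5 against 98.7 and 85.5 in atx1/2 (adjusted p = 0.0479), a call that ended when any 1 of the 4 libraries was left out. In the quadruple mutants AT1G29730 stood at 27.0 and 34.6 in atx2/3/4/5 and at 1.7 and 2.45 in atx1/2/4/5. Since the kinase genes are near copies in tandem, reads may have been split between them by the counting, which is not stated.

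The regions just before the starts of 2 of these genes and of 2 genes low in atx4/5 are shown because the 4 genes carry opposite patterns across the genotypes. Each is the 250 bases upstream of the annotated gene start, read 5′ to 3′ on the gene's own strand from the RefSeq TAIR10.1 genome, with matches to any of 3 motifs on either strand in capitals: the telobox AAACCCTA, the site II core GCCCA and the repeat GAGAGA.
AT1G29730 (chr1:10405914-10406163, minus strand, high in atx4/5): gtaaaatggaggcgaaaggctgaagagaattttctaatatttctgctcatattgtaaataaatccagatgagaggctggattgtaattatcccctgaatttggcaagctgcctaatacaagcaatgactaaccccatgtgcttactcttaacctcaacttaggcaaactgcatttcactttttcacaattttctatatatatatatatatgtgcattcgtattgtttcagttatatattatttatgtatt
SK4 (chr1:6986062-6986311, plus strand, high in atx4/5): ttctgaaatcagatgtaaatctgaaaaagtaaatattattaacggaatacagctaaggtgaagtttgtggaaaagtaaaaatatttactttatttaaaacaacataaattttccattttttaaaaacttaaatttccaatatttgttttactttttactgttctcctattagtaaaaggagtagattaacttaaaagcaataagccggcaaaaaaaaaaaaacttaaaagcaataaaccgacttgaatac
HOL2 (chr2:18191349-18191598, minus strand, low in atx4/5): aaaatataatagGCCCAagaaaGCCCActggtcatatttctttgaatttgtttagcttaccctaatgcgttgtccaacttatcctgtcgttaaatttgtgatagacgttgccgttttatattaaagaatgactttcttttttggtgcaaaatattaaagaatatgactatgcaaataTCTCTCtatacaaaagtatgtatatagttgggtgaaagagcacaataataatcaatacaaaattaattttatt
AT3G46370 (chr3:17051270-17051519, plus strand, low in atx4/5): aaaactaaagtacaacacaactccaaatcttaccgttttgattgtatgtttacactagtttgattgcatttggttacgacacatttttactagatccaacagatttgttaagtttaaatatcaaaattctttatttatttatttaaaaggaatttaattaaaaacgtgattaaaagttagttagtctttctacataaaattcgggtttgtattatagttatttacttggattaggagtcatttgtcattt

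Of these 4 windows, HOL2 held 3 matches and the other 3 held none. The motifs were then counted before all genes tested. The site II core was present in 23.8% of windows of genes higher in atx4/5 and 19.7% of those of genes lower in atx4/5, against 23.9% of all tested genes. The GAGA repeat was present in 18.5% of windows of higher genes and 17% of those of lower genes, against 20.1% of all. The telobox was present in 3.97% of windows of higher genes and 2.39% of those of lower genes, against 4.01% of all, so each motif was a little less frequent before genes lower in atx4/5. These shares are descriptions of the letters in the windows, and no test was made.

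Most of the other named genes that rose in atx4/5 had lower counts. AGL72, a MADS-box gene of the SOC1 group, had 13.8 and 9.75 in atx4/5 against 0 and 0 in atx1/2 and 0 and 0 in Col-0, at least 3.66-fold higher than in atx1/2. AGL72 stood at 16.6 and 20.8 in atx2/3/4/5 and 6.06 and 6.48 in atx1/2/4/5. TPS03, a terpene synthase, had 18.5 and 15.7 in atx4/5 against 1.03 and 0.0133 in atx1/2 (adjusted p = 0.00524). CESA9, a cellulose synthase subunit, had 44.1 and 39.6 in atx4/5 against 4.22 and 10.9 in atx1/2 and 34.8 and 45 in Col-0 (adjusted p = 0.011). Thus AGL72 had reads in atx4/5 and both quadruple mutants and none in atx1/2 or Col-0, while the atx4/5 libraries of CESA9 lay within its Col-0 range or just beside it. CYP77A9, GRP19, ARF20, UGT85A7, UGT76E2, MIOX4, CASP5, MBP1 and SHP1 also belonged to the 15 largest rises, with log2 fold changes of 1.68 to 2.8. MBP1, a myrosinase-binding protein, was the most abundant of them, at 1173 and 1495 in atx4/5 against 417 and 391 in atx1/2. The calls of GRP19 and MIOX4 ended when any 1 of the 4 libraries was left out, and those of CYP77A9, CESA9, ARF20 and SHP1 ended without 3 of them in turn.

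Several of the strong falls were in genes that were abundant in atx1/2 and far lower in atx4/5. HOL2, a methyltransferase of the family that methylates halides and thiols, had 35.4 and 17.4 normalised read counts in atx4/5, against 648 and 607 in atx1/2 and 523 and 528 in Col-0. Its log2 fold change of atx4/5 over atx1/2 was -4.60 ± 0.34 (adjusted p = 1.28e-05). AT3G46370, a leucine-rich repeat protein kinase, had 49.0 and 52.5 in atx4/5, against 644 and 589 in atx1/2 (log2 fold change -3.58 ± 0.25, adjusted p = 5.93e-07). AT3G23480, annotated as a cyclopropane fatty acid synthase, had 30.7 and 46.0 in atx4/5, against 406 and 409.7 in atx1/2 (log2 fold change -3.40 ± 0.25, adjusted p = 9.93e-07). The last 2 genes were chosen after their values were seen.

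These genes were low in both quadruple mutants. HOL2 stood at 22.8 and 14.2 in atx2/3/4/5 and 132 and 76.1 in atx1/2/4/5. AT3G46370 stood at 14.5 and 12.9 in atx2/3/4/5 and 49.2 and 30.9 in atx1/2/4/5, and AT3G23480 at 22.8 and 18.7 in atx2/3/4/5 and 60.6 and 35.5 in atx1/2/4/5. All 3 genes were lower in atx2/3/4/5 than in atx1/2/4/5 (adjusted p = 0.000622, 0.00102 and 0.00628).

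Most of the other large falls were in genes with few reads in atx4/5. FRUCT5, a beta-fructofuranosidase by name, had 28.7 and 52.8 in atx4/5 against 287 and 370.2 in atx1/2 (log2 fold change -3.03 ± 0.22, adjusted p = 9.93e-07). STP11, a sugar transporter known from pollen tubes, had 1.14 and 0.025 in atx4/5 against 33.3 and 34.3 in atx1/2 (adjusted p = 3.1e-05). ATHB54, a homeodomain-leucine zipper gene, had 3.47 and 2.45 in atx4/5 against 63.4 and 52.3 in atx1/2 (adjusted p = 0.000313). All 3 genes were nearer to Col-0 in atx1/2 than in atx4/5. ABCG38, CHAT, SLAH4, ELF4-L3, AGL46, CYP71B9, LBD26 and LUP5 completed the 15 largest falls, beside ATX4, QQS and GLR2.7, with fitted log2 fold changes of -3.43 to -2.93 that depend on the pseudocount where reads are few, and of these only SLAH4 passed 50 normalised read counts in atx1/2. The call of ELF4-L3 ended without atx4/5 replicate 1, atx1/2 replicate 1 or atx1/2 replicate 2. That of CYP71B9 ended without atx1/2 replicate 1 and that of LUP5 without atx1/2 replicate 2.

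A pair of genes with clear differences in atx4/5 lay nearer to Col-0 in the quadruple mutants. GLR2.7, a glutamate receptor-like channel, had 16.2 and 14.4 normalised read counts in atx4/5, against 177 and 207 in atx1/2 and 146 and 132 in Col-0 (log2 fold change -3.56 ± 0.21, adjusted p = 1.73e-07). It stood at 170 and 149 in atx2/3/4/5 and 114 and 106 in atx1/2/4/5, which also carry the atx4 and atx5 labels. AT1G69060, a DnaJ-domain chaperone gene, went the other way, with 1678 and 1692 in atx4/5, against 364 and 359 in atx1/2 and 389 and 390.5 in Col-0 (log2 fold change 2.22 ± 0.10, adjusted p = 2.65e-09). It stood at 594 and 478 in atx2/3/4/5 and 341 and 336 in atx1/2/4/5. In the separate table, AT1G69060 in atx4/5;jmj24 against jmj24 had a log2 fold change of 0.06 (adjusted p = 0.908) and GLR2.7 one of 0.42 (adjusted p = 0.704), neither past the test. AT1G69060 was chosen after its values were seen.

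**Figure D3:**
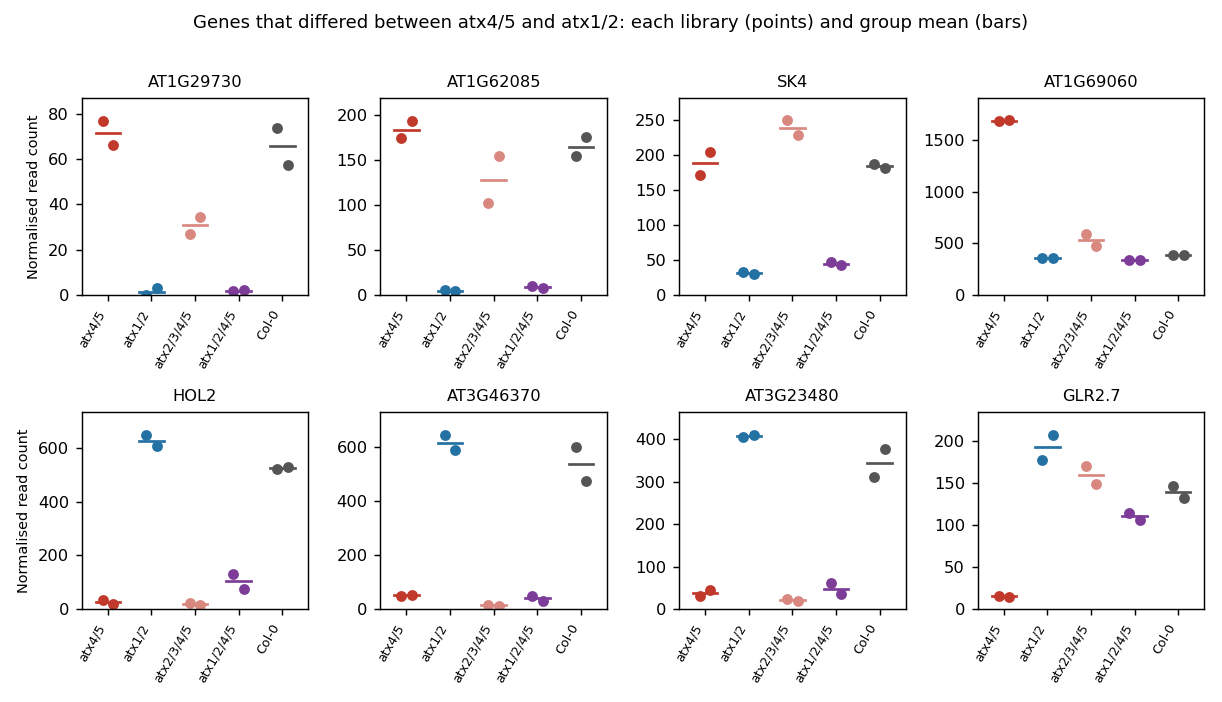
Normalised read counts (y axis, linear from 0) of 8 genes in 5 genotypes (x axis), with 1 point per library and a bar at the mean of the 2 libraries. AT1G29730, AT1G62085 and SK4 are low in atx1/2 and atx1/2/4/5, HOL2, AT3G46370 and AT3G23480 are low in all 3 groups with the atx4 and atx5 labels, and AT1G69060 and GLR2.7 stand apart in atx4/5.

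Col-0 lay nearer to atx1/2 for most genes lower in atx4/5, and less clearly so for genes higher in atx4/5. Of the 796 genes lower in atx4/5, the Col-0 mean was nearer to atx1/2 in 696 (87.4%), and their median log2 fold change against Col-0 was -0.82 in atx4/5 and 0.16 in atx1/2. Of the 428 genes higher in atx4/5, Col-0 was nearer to atx1/2 in 270 (63.1%), with medians of 0.28 in atx4/5 and -0.14 in atx1/2. Over all genes tested Col-0 was nearer to atx1/2 in 57.6%. Col-0 lay between the double mutants in 620 of the lower and 322 of the higher genes, and above both in 167 of the lower genes. Both mutants share the same 2 Col-0 libraries, so these positions are given as descriptions. Against Col-0, atx4/5 had 239 genes higher (0.962% of genes tested) and 565 lower (2.27%), 3.24% in all. Against the same libraries, atx1/2 had 20 higher (0.0805%) and 50 lower (0.201%), 0.282% in all.

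Libraries outside the comparison were then examined for the genes it called. Comparisons with the quadruple mutants come from the same fit, with 1 spread per gene. Genes with a small spread pass more readily in each of them, in either direction. The shares of all genes tested given beside them are not matched for this. In atx2/3/4/5 against Col-0, 38.0% of all genes tested passed, 20.1% lower and 17.8% higher. There, 405 of the 796 genes lower in atx4/5 were also lower (50.9%) and 112 were higher. Those 405 genes were 8.1% of all genes lower there. Of the 428 genes higher in atx4/5, 149 were higher there (34.8%, and 3.36% of all genes higher there) and 104 were lower. The genes that fell thus showed the same direction in 405 of the 517 cases called there, and the genes that rose in 149 of 253. Without atx4/5 replicate 2, atx1/2 replicate 1 or atx1/2 replicate 2, the genes in the same direction numbered 298, 270 and 298 in place of 554.

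The mutant with all 4 alleles was read in the same way. In atx1/2/4/5 against Col-0, 33.3% of all genes tested passed, 17.1% lower and 16.2% higher. Of the 796 genes lower in atx4/5, 311 were lower there (39.1%, and 7.32% of all genes lower there) and 120 were higher. Of the 428 genes higher in atx4/5, 108 were higher there (25.2%, and 2.68% of all genes higher there) and 151 were lower (35.3%). Without atx4/5 replicate 2, atx1/2 replicate 1 or atx1/2 replicate 2, the genes in the same direction numbered 231, 206 and 220 in place of 419.

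The quadruple mutants were also set against each other. By their labels both carry atx2, atx4 and atx5, and they differ in atx3 against atx1. In atx2/3/4/5 against atx1/2/4/5, 15.6% of all genes tested passed, 6.76% higher and 8.84% lower. There, 122 of the 428 genes higher in atx4/5 were higher (28.5%) and 34 were lower (7.94%). Of the 796 genes lower in atx4/5, 196 were lower (24.6%) and 71 were higher (8.92%). In each direction the share in the same direction was above that of all genes tested and the opposite share was close to it. The same-direction genes were 7.27% of all genes higher there and 8.93% of all genes lower there. Without atx4/5 replicate 2, atx1/2 replicate 1 or atx1/2 replicate 2, the 318 genes in the same direction became 172, 158 and 180.

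The contrast atx4/5;jmj24 against jmj24 comes from a table normalised separately, and its sides differ only in the atx4 and atx5 labels. There 177 of 23740 genes passed (0.746%), with 0.152% higher and 0.594% lower. Of the 788 genes lower in atx4/5 that were tested there, 59 were lower (7.49%) and 0 were higher, and the 59 made up 41.8% of all 141 genes lower there. Of the 428 genes higher in atx4/5, 2 were higher and 2 were lower. The 61 genes in the same direction became 12 without jmj24 replicate 1, 13 without jmj24 replicate 2 and 27 without atx4/5;jmj24 replicate 2. They became 2 with all genes with a value above 0, 9 without a mean-variance trend and 27 without the robust option.

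**Figure D4:**
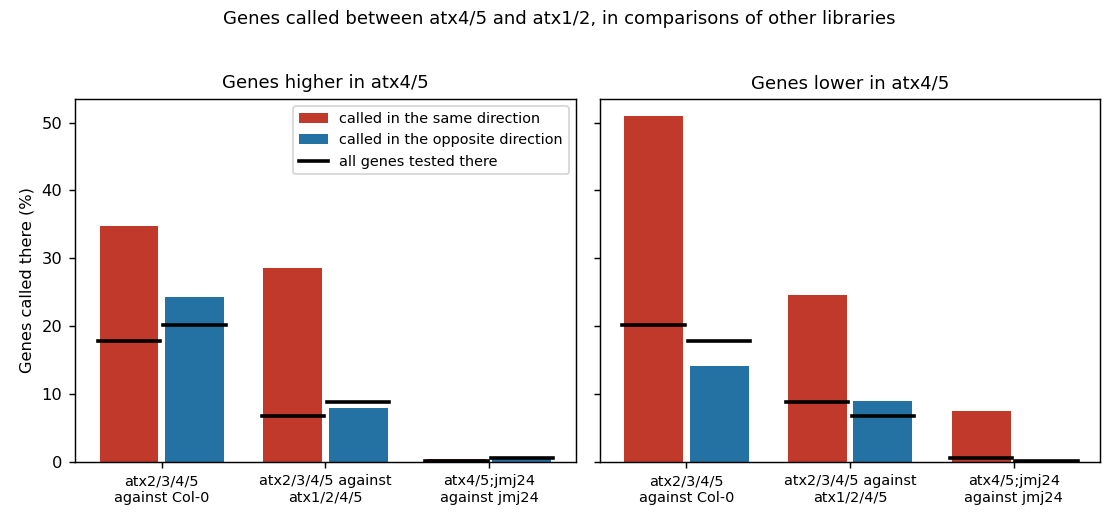
Share of the genes called between atx4/5 and atx1/2 that were also called in 3 comparisons of other libraries (y axis, percent of genes tested there), for genes higher (left) and lower (right) in atx4/5, in the same direction (red) and the opposite direction (blue), with black lines at the share of all genes tested there. Genes lower in atx4/5 were called lower in atx2/3/4/5 against Col-0 in 50.9% of cases, against 20.1% of all genes, which are not matched for spread.

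In all 3 of atx4/5 against atx1/2, atx2/3/4/5 against Col-0 and atx4/5;jmj24 against jmj24, 54 genes were lower and 1, NSP5, was higher. HOL2 was among the 54, at -2.63 on the log2 scale in atx4/5;jmj24 against jmj24 (adjusted p = 0.00251). AT2G40520, a nucleotidyltransferase gene, had 49.2 and 61.7 normalised read counts in atx4/5 against 307 and 311 in atx1/2 (log2 fold change -2.47 ± 0.17, adjusted p = 4.93e-07), and -1.95 on the log2 scale in atx4/5;jmj24 against jmj24 (adjusted p = 0.000268). AGL87, a MADS-box gene, had 118 and 106 in atx4/5 against 521 and 512 in atx1/2 (adjusted p = 6.89e-06). NPC2, a phospholipase C that acts on membrane lipids, had 64.6 and 86.5 in atx4/5 against 274 and 261 in atx1/2 (adjusted p = 6.89e-06). In each of these genes the lowest atx1/2 library was above the highest atx4/5 library by a wide margin, and both quadruple mutants were below Col-0. Other members were GLR1.1, a glutamate receptor-like channel, MES8, a methyl esterase, AT5G08600 (a U3 ribonucleoprotein family protein), AT1G62290 (a saposin-like aspartyl protease) and AT5G61560 (a U-box protein kinase). These names were chosen after their values were seen, and each kept its call between the double mutants without any 1 of the 4 libraries. Under alternatives chosen after seeing the data, the 54 genes became 12 without jmj24 replicate 1, 12 without jmj24 replicate 2 and 25 without atx4/5;jmj24 replicate 2, and 2 with all genes with a value above 0, 8 without a mean-variance trend and 27 without the robust option.

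Non-coding transcripts gave some of the largest falls. AT3G05945 had 3.51 and 3.6 normalised read counts in atx4/5, against 478 and 444 in atx1/2, 39.9 and 66.5 in Col-0 and 7.2 and 0.136 in atx2/3/4/5 (log2 fold change -6.67 ± 0.74, adjusted p = 0.00117). AT2G05518 had 1.25 and 3.49 in atx4/5 against 87.1 and 52.7 in atx1/2 (adjusted p = 0.0001). AT1G06837 had 0 and 0 in atx4/5 against 35.4 and 34.4 in atx1/2, at least 9.9-fold lower, and 0 and 0 in both quadruple mutants. The first 2 were also lower in atx4/5;jmj24 than in jmj24 (adjusted p = 3.13e-08 and 0.0136). AT3G05945 was higher in atx1/2 than in Col-0 in both libraries, although that difference did not pass the test (adjusted p = 0.261). Long non-coding RNA genes made up 3.64% of genes lower in atx4/5 and 1.4% of genes higher in atx4/5, against 4.11% of all genes tested, and these 3 were chosen after their values were seen.

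Gene lists, chosen with earlier results of these data known, were next read beside the 4.93% called over all genes tested. Their shares are descriptions, and no set test was made. The COMPASS and H3K4 methyltransferase list had 13 genes tested, of which ATX2 rose and ATX4 and ATX5 fell. The other 10 did not pass, among them the core subunit genes WDR5A, with 128 and 98.8 in atx4/5 against 99.7 and 80.1 in atx1/2, RBL and ASH2R. ATXR7, an H3K4 methyltransferase gene outside the ATX family, had 989 and 1034 in atx4/5 against 831 and 880.1 in atx1/2 (adjusted p = 0.0565). Of 13 genes for JmjC and LSD1-type histone demethylases, only REF6, which removes methyl groups from H3K27, passed, at 961 and 1117 in atx4/5 against 847 and 859 in atx1/2 (adjusted p = 0.0381), a call that ended when column totals were set equal and without 3 of the 4 libraries in turn. Of 13 Polycomb and H2A.Z genes 0 passed in limma, and 1 had an unadjusted p under 0.05.

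Of 16 genes of the DNA methylation machinery, 4 rose and 1 fell. RDR2, the RNA-dependent RNA polymerase of the small RNA pathway that directs DNA methylation, had 289.8 and 294 in atx4/5, against 171 and 161 in atx1/2 and 202 and 205 in Col-0 (log2 fold change 0.81 ± 0.13, adjusted p = 0.00137). DCL3, which cuts the double-stranded RNA into small RNAs in the same pathway, had 354 and 402 in atx4/5 against 224 and 276 in atx1/2 (adjusted p = 0.02). NRPE1, the largest subunit of RNA polymerase V, had 422 and 519.6 in atx4/5 against 283 and 375 in atx1/2 (adjusted p = 0.0362). RDR2 kept its call without any 1 of the 4 libraries, while the calls of DCL3 and NRPE1 ended without atx4/5 replicate 2 or atx1/2 replicate 1. CMT2, a methyltransferase of heterochromatin, had 1237 and 1205 in atx4/5 against 969 and 1064 in atx1/2 (adjusted p = 0.0332), a call that ended when column totals were set equal and without 3 of the 4 libraries in turn. DML3, a DNA demethylase, had 249 and 256 in atx4/5 against 481 and 419 in atx1/2 (log2 fold change -0.83 ± 0.14, adjusted p = 0.00201), and 107 and 78.6 in atx2/3/4/5. The median of the list was -0.03, against 0.004 for all genes tested, and MET1, CMT3, DRM2 and the demethylase ROS1 did not pass.

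Of 7 genes listed here as silenced by DNA methylation, 4 fell in atx4/5, 0 rose and 3 did not pass, with a list median of -1.58. Set against Col-0, the list median was -0.5 in atx4/5 and 0.52 in atx1/2, so both mutants lay away from Col-0. QQS, a gene of starch metabolism with natural variation in methylation, had 2.34 and 2.4 in atx4/5, against 45.8 and 53.0 in atx1/2 and 36.8 and 55.7 in Col-0 (log2 fold change -3.90 ± 0.47, adjusted p = 0.000137). AT2G34655 had 17.4 and 16.8 in atx4/5 against 54.1 and 52.1 in atx1/2 (adjusted p = 0.00474). PHE1, an imprinted MADS-box gene and a doubtful member of this list, had 2.38 and 3.55 in atx4/5 against 18.8 and 25.3 in atx1/2 (adjusted p = 0.0181). SDC, an F-box gene with a methylated promoter, had 1.22 and 2.35 in atx4/5 against 7.32 and 11.0 in atx1/2 (adjusted p = 0.0472). Apart from AT2G34655 and QQS these rest on few reads, and the calls of PHE1 and SDC ended when any 1 of the 4 libraries was left out. IBM1, the H3K9 demethylase gene that protects gene bodies from methylation, did not pass, at 717 and 714 in atx4/5 against 624 and 618 in atx1/2 (adjusted p = 0.197).

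Of the FLC clade of flowering repressors, 2 of 8 genes rose in atx4/5 and 0 fell. FLC had 19 and 30.6 normalised read counts in atx4/5, against 5.19 and 3.37 in atx1/2 and 6.15 and 10.8 in Col-0 (log2 fold change 2.27 ± 0.48, adjusted p = 0.0113). MAF5 had 42.6 and 28.0 in atx4/5, against 4.16 and 3.35 in atx1/2 and 10.3 and 25.5 in Col-0 (log2 fold change 2.91 ± 0.43, adjusted p = 0.00073). For both genes the highest atx1/2 library was below the lowest atx4/5 and Col-0 libraries. MAF5 stood at 31.1 and 24.6 in atx2/3/4/5, against 5.13 and 7.38 in atx1/2/4/5 (adjusted p = 0.00473), and FLC at 9.42 and 20.5 in atx2/3/4/5, against 10.6 and 4.59 in atx1/2/4/5 (adjusted p = 0.247). The call of FLC did not hold without atx4/5 replicate 2 or without atx1/2 replicate 2. MAF1, MAF2, MAF3 and MAF4 did not pass, with log2 fold changes of -0.15 to 0.47.

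Flowering promoters and floral identity genes showed 1 rise and 2 falls among 18 tested. FUL, a MADS-box gene of floral and fruit identity, had 11.7 and 12 in atx4/5 against 44.8 and 49.7 in atx1/2 and 24.5 and 29.3 in Col-0 (log2 fold change -1.91 ± 0.36, adjusted p = 0.00532). AGL24, a promoter of flowering, had 48.9 and 49.0 in atx4/5 against 106 and 116 in atx1/2 (adjusted p = 0.0245). GI, a clock component that promotes flowering in long days, had 2071 and 2109.8 in atx4/5 against 1679 and 1817 in atx1/2 (adjusted p = 0.0475). FT, the mobile flowering signal, had 4.71 and 5.93 in atx4/5 against 6.24 and 5.56 in atx1/2 and did not pass, and neither did SOC1. The calls of AGL24 and GI ended when any 1 of the 4 libraries was left out. Of 16 circadian clock genes, ELF3 rose beside GI, at 849 and 927 in atx4/5 against 665 and 717 in atx1/2 (adjusted p = 0.0255), a call that ended without 3 of the 4 libraries in turn.

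Jasmonate genes, which act in wound and insect defence, included 6 of 23 that rose in atx4/5 (26.1%) and 0 that fell. Of the enzymes that make the hormone, LOX2 had 25879.7 and 28686 normalised read counts in atx4/5, against 15479 and 17517 in atx1/2 and 17019 and 17296 in Col-0 (log2 fold change 0.73 ± 0.10, adjusted p = 0.00106). AOS had 7573 and 7369 in atx4/5 against 5032 and 4779 in atx1/2 (log2 fold change 0.61 ± 0.07, adjusted p = 6.6e-05). AOC2 had 5873 and 5839 in atx4/5 against 2916 and 2942 in atx1/2 (log2 fold change 1.0 ± 0.09, adjusted p = 3.97e-05). The atx1/2 libraries lay close to Col-0 in all 3, and the atx4/5 libraries lay above. AOC1, a near copy of AOC2 next to it, had 1943 and 1856 in atx4/5 against 1295 and 1218 in atx1/2 (adjusted p = 0.00318), and reads may be split between the copies. VSP2, a storage protein induced by the hormone, had 11806 and 12372 in atx4/5 against 7433 and 6829 in atx1/2 (log2 fold change 0.76 ± 0.07, adjusted p = 6.89e-06). JMT, which makes methyl jasmonate, had 92.3 and 106 in atx4/5 against 42.6 and 41.0 in atx1/2 (adjusted p = 0.011).

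The other 17 jasmonate genes did not pass, including the repressor genes JAZ10 and JAZ1, the defensin PDF1.2 and OPR3. The list median was 0.39, against 0.004 for all genes tested, and LOX2, AOS, AOC1, AOC2 and VSP2 kept their calls without any 1 of the 4 libraries, while that of JMT ended without 3 of them in turn. For the whole list, the median against Col-0 was 0.12 in atx4/5 and -0.11 in atx1/2. In the quadruple mutants LOX2 stood at 77423 and 78153 in atx2/3/4/5 and 60336 and 57129 in atx1/2/4/5. CLH1, a chlorophyllase known to respond to jasmonate and chosen after its values were seen, had 2034 and 1684 in atx4/5 against 1039.9 and 857 in atx1/2 (adjusted p = 0.00439).

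Glucosinolate genes, whose products are sulfur compounds used in defence, included 5 of 22 that rose (22.7%) and 0 that fell. MYB29, a transcription factor of the aliphatic branch, had 823 and 916 in atx4/5 against 584 and 537 in atx1/2 (adjusted p = 0.00562). CYP79F1, an enzyme of the same branch, had 4824 and 4452 in atx4/5 against 3706 and 3468 in atx1/2 (adjusted p = 0.00371). CYP79B3, which starts the branch made from tryptophan, had 2298 and 1939 in atx4/5 against 1324 and 1228 in atx1/2 (log2 fold change 0.73 ± 0.10, adjusted p = 0.000473). These changes were small and regular, and MAM1, an enzyme of side chain elongation, and TGG1, a myrosinase that breaks glucosinolates, rose by 0.29 and 0.30 on the log2 scale (adjusted p = 0.00491 and 0.0448). The list median was 0.17. CYP79B3 kept its call without any 1 of the 4 libraries, while that of TGG1 ended without each of them. The call of MYB29 ended without atx4/5 replicate 2 or atx1/2 replicate 2, and that of MAM1 without atx4/5 replicate 2 or atx1/2 replicate 1. That of CYP79F1 ended without atx1/2 replicate 2. The calls of MYB29, MAM1 and CYP79F1 also ended without a mean-variance trend.

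Salicylic acid and immune genes had 3 of 26 lower, 0 higher and a list median of -0.36. Relative to Col-0, the list median was -0.05 in atx4/5 and 0.17 in atx1/2. PBS3, an enzyme of salicylic acid synthesis, had 60.7 and 29.8 in atx4/5 against 123 and 103 in atx1/2 (log2 fold change -1.38 ± 0.28, adjusted p = 0.0088). PAD4 and SAG101, which both act with EDS1 in immune signalling, fell by 0.36 and 0.49 on the log2 scale (adjusted p = 0.029 and 0.0295). EDS1 itself, NPR1 and ICS1 had log2 fold changes of -0.04, 0.01 and 0.01 and did not pass. The call of SAG101 ended when any 1 of the 4 libraries was left out, and those of PAD4 and PBS3 did not hold without 3 and 2 of them in turn.

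Single genes passed in several other lists. In the nitrate list NRT2.1, a high-affinity nitrate transporter, had 86.5 and 102 in atx4/5 against 189 and 184 in atx1/2 and 90.0 and 112 in Col-0, and ANR1, a MADS-box gene of root growth, had 107 and 154 in atx4/5 against 252 and 278 in atx1/2. NIA1, a nitrate reductase, rose by 0.30 on the log2 scale. In the auxin list GH3.5, which conjugates the hormone to amino acids, had 787 and 836 in atx4/5 against 1404 and 1563 in atx1/2 (adjusted p = 0.000657), and PRE1, a growth-promoting helix-loop-helix gene, had 805 and 870.4 in atx4/5 against 566 and 553 in atx1/2 (adjusted p = 0.000897). FRO3, a mitochondrial iron reductase, had 799 and 859.7 in atx4/5 against 1447 and 1568 in atx1/2 (adjusted p = 0.000963), alone among 20 iron deficiency genes. CHI, an enzyme of flavonoid synthesis, and ABI5, a transcription factor of abscisic acid response, were the only genes of their lists to fall, and ETT, an auxin response factor, was the only one of 17 shoot meristem and boundary genes to rise. Of the genes in this paragraph, GH3.5, PRE1 and FRO3 kept their calls without any 1 of the 4 libraries, the call of NRT2.1 ended without each of them, and those of NIA1, ANR1, CHI, ABI5 and ETT ended without 3 in turn. Of 24 nuclear photosynthesis, 18 heat shock, 11 DNA damage and 16 phosphate starvation genes, 0 passed in limma, and 4, 3, 3 and 1 of them, in that order, had an unadjusted p under 0.05.

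**Figure D5:**
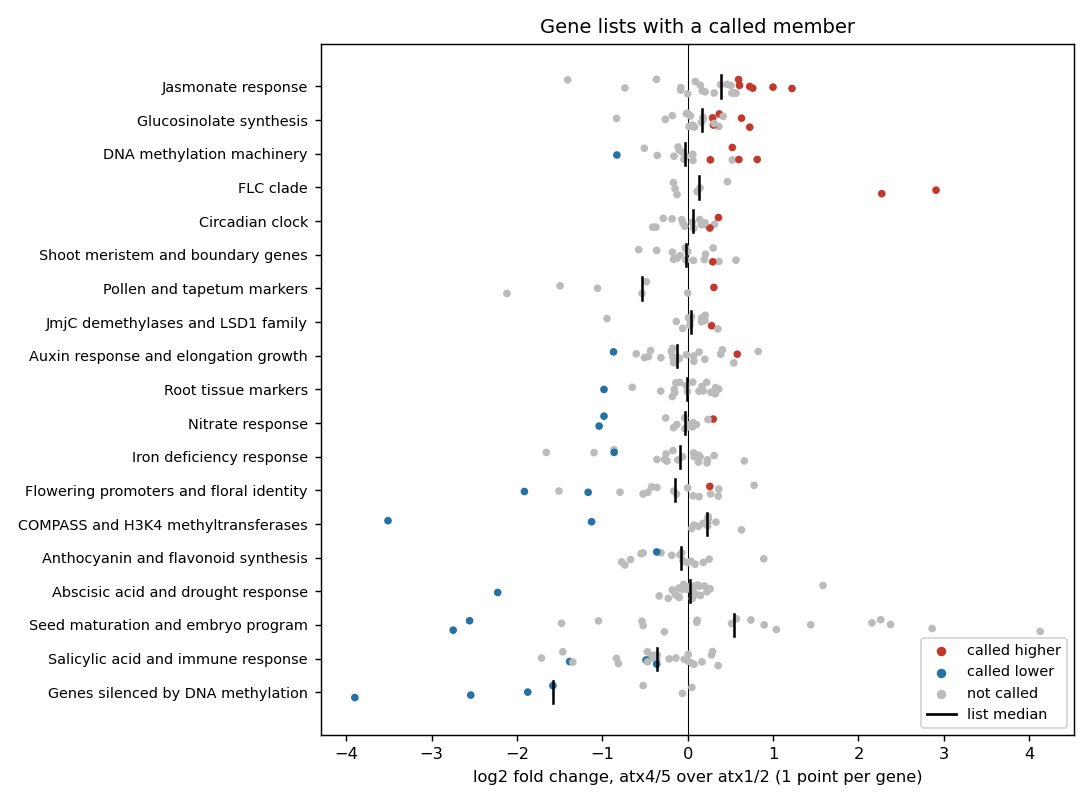
The log2 fold change of atx4/5 over atx1/2 (x axis) of each tested gene in the lists with a called member (rows), in red where called higher, blue where called lower and grey where not called, with a black bar at the list median. Jasmonate response lies to the right with a median of 0.39 and the genes listed as silenced by DNA methylation to the left with a median of -1.58.

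Markers of tissues and cell types were compared for the makeup of the seedlings. The summed level of 24 photosynthesis genes was 4026164 and 3956434 in atx4/5, against 3879095 and 3844228 in atx1/2, higher in both atx4/5 libraries. The Col-0 libraries, at 4031145 and 3769903, spanned both groups. The summed level of 19 root markers was 73184 and 57139 in atx4/5, against 73891 and 63431 in atx1/2, where the groups overlapped. Col-0 stood at 79998 and 63995 for the root markers. In each of these groups replicate 1 was above replicate 2, and for each replicate number atx4/5 was the lowest. That of 10 guard cell and trichome markers was 4234 and 4208 in atx4/5, against 4079.6 and 3900 in atx1/2, higher in both atx4/5 libraries. Col-0 stood at 4156 and 4305 for these markers. Their median log2 fold change was -0.13, opposite in direction to the sum. Of these markers 0 were called in limma and 1 had an unadjusted p under 0.05. WUS was at 0 in all 4 libraries among the shoot meristem genes, as were 3 of 9 pollen and tapetum markers, of which TPD1 alone rose, at 888 and 852 in atx4/5 against 662 and 747 in atx1/2, a call that ended when column totals were set equal and without 3 of the 4 libraries in turn. The sum of the 9 pollen and tapetum markers was 890.1 and 858 in atx4/5, against 680.4 and 764 in atx1/2. TPD1 made up nearly all of it, so the sum repeats that gene. The median log2 fold change of the 7 markers tested was -0.54. Seed genes varied between replicates, with summed levels of 1167 and 391 in atx4/5 against 394 and 151 in atx1/2. The 20 genes of the seed list had log2 fold changes of -2.75 to 4.13 with a median of 0.54. Of them 0 were called higher and 18 were not called. In that list DOG1, which delays germination, fell, at 7.08 and 9.47 in atx4/5 against 49.0 and 57.4 in atx1/2 (log2 fold change -2.55 ± 0.39, adjusted p = 0.000963), and LEC2, an embryo regulator, was called lower at 0 and 0 in atx4/5 against 4.19 and 7.67 in atx1/2, a call that ended when any 1 of the 4 libraries was left out. What share these sums had in the results was not tested.

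The positions of the called genes were compared with those of the mutated loci. Within 1 Mb of ATX1, ATX2, ATX4 or ATX5, 86 of 2146 genes were called (4.01%), against 5.01% elsewhere. By locus the share was 3.9% around ATX1, 2.75% around ATX2, 4.5% around ATX4 and 5.04% around ATX5, and by chromosome it ran from 4.54% to 5.22%. Beside the kinase run on chromosome 1, only 3 other runs of at least 3 neighbouring genes called in the same direction were found. One was of UGT85A genes that rose on chromosome 1 (AT1G22340, AT1G22360 and AT1G22370), one of genes that fell on chromosome 1 (AT1G68110, AT1G68120 and AT1G68130) and one of genes that fell on chromosome 4 (AT4G08040, AT4G05315 and AT4G05335).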

How the data were processed

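RNA sequencing of whole seedlings was used as the authors deposited it. HISAT2 2.2.0, edgeR and the build TAIR10 are named by the submitters' processing notes. The read counter, the strand setting and the filters are not given in the sources used here. What the authors deposited is a signal for each gene, which looks like read counts brought to one library size per table, without scaling for length. Depth was estimated from the spacing of low values, at 25.7 and 23.9 M reads in atx4/5, 27.8 and 25.6 M in atx1/2 and 21.6 to 33.5 M over the table. Intervals of read ratios are exact and, like floors, cover counting error only.

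Here log2(value + 1) of the 14 libraries (7 groups) was fitted with limma 3.58.1 under R 4.3.3 and statmod 1.5.0, using robust empirical Bayes with a trend on the mean and Benjamini-Hochberg adjustment over all 24843 genes. Fold changes are on that scale, which understates those of low genes. The second table (6 libraries, 23740 genes) was fitted alone, and no level was compared across tables. With 2 libraries against 2 an exact permutation test cannot go below p = 0.333, so the test rests on the pooled spread. The fit was run on simulated data with the same spread setting for every gene and changes of 2-fold and 4-fold, none in low genes. That run does not measure the error rate in these data, for smaller changes or for low genes.

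All 32548 identifiers were matched to TAIR10.1. The 25 lists were written from general knowledge, and 4 entries whose symbol differed were dropped. Members and lists were chosen with earlier results of these data known. Named were ATX1 to ATX5, FLC, FT and IBM1, the 15 largest rises and falls with a symbol and a mean of at least 10, and up to 4 called members per list. Other list members are named with their values to complete a list. The labels give replicate numbers only, and the main fit did not pair libraries by them. The correlation of replicate differences between the double mutants was 0.094, which does not settle whether libraries were handled in pairs.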

Additional observations from a re-analysis of the deposited data

How the results depend on the processing

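No named gene that was called changed sign under the alternatives run. The 1224 genes called became 598 when all genes with a value above 0 were tested, 765 without a mean-variance trend, 365 with only the double mutants fitted, 508 at 2-fold or more, and 537 to 1265 without 1 library of the 5 groups used. Of those within 1 Mb of an ATX locus, 86 became 35, 42 and 21 under the first 3 of these settings, 29 to 96 without 1 library, and 32 and 178 in windows of 0.5 and 2 Mb. The 554 genes shared with atx2/3/4/5 against Col-0 became 306 with all genes, and 270 to 554 without 1 library. The 318 shared with atx2/3/4/5 against atx1/2/4/5 became 168 with all genes, 194 without a trend, and 158 to 323 without 1 library, a result added after seeing the data, as was leaving out libraries other than those of the double mutants. The 61 shared with atx4/5;jmj24 against jmj24 became 2, 9 and 27 with all genes, without a trend and without the robust option, and 12 to 66 without 1 library of either table. The 419 shared with atx1/2/4/5 against Col-0, added after seeing the data, became 229 with all genes, 279 without a trend and 206 to 387 without 1 library. The cause of these shifts was not tested, beyond the smaller number of libraries or the larger number of genes. Whether replicate numbers mark libraries handled together is not stated. A replicate block gave 1891 called, 154 near the loci, 138 shared with atx4/5;jmj24 against jmj24 and 514 with atx2/3/4/5 against atx1/2/4/5. What the block took up was not tested. Of the 94 named genes called, 53 kept the call without any 1 of the 4 libraries, 64 without a trend and 47 under every setting. Comparisons with quadruple mutants have no value where those libraries were left out. In the table of both mutants 1 read was worth 0.834 to 1.21, so values near 1 rest on about 1 read.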
